A study of Mus musculus with 144 samples.

Results

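The glucocorticoid receptor gene Nr3c1 and 8 genes listed with it as glucocorticoid targets were followed over the day in mouse liver. The 9 genes were chosen by symbol, at a time when earlier results of these data were known: Nr3c1, Tsc22d3, Fkbp5, Sgk1, Sgk2, Zbtb16, Cebpb, Cebpd and Lcn2. Whether each of the 8, Sgk2 among them, answers to glucocorticoids in liver was not tested here. All 9 were found among the 51912 genes of the count table, and all 9 had enough counts to be tested in every comparison. The study set out to follow polyadenylation site usage over the day. It sequenced the 3′ ends of polyadenylated RNA (the QuantSeq kit), so that a read is taken to mark where a transcript stops.

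The libraries form 4 series of 36. They are total RNA, nuclear RNA (nuclei spun through a sucrose cushion) and polysomal RNA (RNA on ribosomes, held by cycloheximide and taken from a sucrose gradient) of wild-type liver, and total RNA of Bmal1-/- liver. A series has 6 libraries per time point. The 6 time points are ZT2, 6, 10, 14, 18 and 22, where ZT (zeitgeber time) counts hours from lights on. All mice were male C57BL/6J, kept on alternating 12 h light and 12 h dark phases and fed and watered ad libitum. The age of the mice, the altered part of Bmal1 and the mouse behind each library are not given in the labels.

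Corticosterone, the glucocorticoid of mice, is released by the adrenal gland in a daily wave that peaks near the start of the dark phase, when mice become active. It binds the receptor encoded by Nr3c1, which waits in the cytoplasm on HSP90 and its partners, then moves to the nucleus and binds glucocorticoid response elements in DNA. In liver the receptor drives genes of glucose, amino acid and lipid handling and damps inflammation. BMAL1 is a core activator of the circadian clock and binds E-boxes with CLOCK. These are statements of background. Corticosterone was not measured here.

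Sequence around the start sites was searched for the element that the receptor binds. RefSeq (build GRCm38.p6) windows of 300 bases, from 250 before to 50 after an annotated start, were at hand for 5 members (Tsc22d3, Fkbp5, Sgk1, Cebpb and Lcn2; 12 windows). Both strands were searched for the full element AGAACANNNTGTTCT, for its arm AGAACA (read as TGTTCT on the other strand), for the E-box CACGTG and for the TATA box TATAAA. The full element contains 2 arms. The Sgk1, Tsc22d3 and Fkbp5 windows that hold one of the first 3 motifs upstream and matter most below are printed 5′ to 3′ on the strand of the gene, with the matches in capitals. They lie at chr10:21993640-21993939 (plus strand), chrX:140600473-140600772 (minus strand) and chr17:28486100-28486399 (minus strand).
Sgk1: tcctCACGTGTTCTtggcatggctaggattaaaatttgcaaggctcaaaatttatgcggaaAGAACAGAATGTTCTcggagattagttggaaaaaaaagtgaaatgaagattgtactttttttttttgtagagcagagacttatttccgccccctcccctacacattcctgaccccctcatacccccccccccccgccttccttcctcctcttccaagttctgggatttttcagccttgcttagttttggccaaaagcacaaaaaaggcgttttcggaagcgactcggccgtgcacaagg
Tsc22d3: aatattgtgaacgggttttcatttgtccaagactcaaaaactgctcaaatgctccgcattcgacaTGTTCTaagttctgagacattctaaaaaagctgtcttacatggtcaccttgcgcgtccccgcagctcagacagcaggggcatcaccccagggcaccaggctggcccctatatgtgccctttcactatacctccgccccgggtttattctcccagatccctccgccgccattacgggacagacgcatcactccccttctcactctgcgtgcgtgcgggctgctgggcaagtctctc
Fkbp5: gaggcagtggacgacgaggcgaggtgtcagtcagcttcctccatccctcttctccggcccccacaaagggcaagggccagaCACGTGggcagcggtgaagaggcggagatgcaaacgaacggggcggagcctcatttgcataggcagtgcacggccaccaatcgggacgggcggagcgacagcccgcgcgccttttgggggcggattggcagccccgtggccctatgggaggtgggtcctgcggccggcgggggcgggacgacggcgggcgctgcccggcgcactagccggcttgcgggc

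Only 3 of 32851 windows in the RefSeq table (0.00913%) held the full element, and 1 of these was the Sgk1 window, where its first base is at -189 from the start. The same window opens with an E-box at -246 that overlaps a further arm, TGTTCT, at -242. The arm alone was common, in 19.0% of all windows, and was found in 4 of the 12 member windows, 3 of Sgk1 and 1 of Tsc22d3 (at -185). These are 2 of the 5 members. Sgk1 has more of the 12 windows than any other member, so a share of windows is not a share of genes. An E-box was present in 7.15% of all windows and in 2 of the 12, that of Sgk1 and that of Fkbp5 at -169. TATAAA stood in 13.6% of all windows and in windows of Cebpb and Sgk1. The letters TTATGTAA (a D-box, 0.938% of all windows) and TGACGTCA (a cyclic AMP response element, 1.79%) were in none of the 12. A match describes these letters only, and says nothing of binding. Elements that lie farther from the start than this window were not examined.

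Library depth ran from 1662449 to 14281894 gene counts, with nuclear libraries the shallowest (1662449 to 6620128). Levels are in CPM, a gene's counts divided by a library's scaled total. They were compared within a gene and not between genes, since the deposited counts are of 3′ ends. Markers of hepatocytes (6 genes) summed to between 17536 and 124159 CPM in a library, as the label of liver asks. Arntl, the symbol of Bmal1, was still counted in Bmal1-/- libraries (11.5 CPM ± 2.98, SD, n = 36, against 6.73 ± 5.40 in wild type), but a 3′ tag does not show whether the deleted part is missing. Its daily curve differed between the genotypes (edgeR interaction, adjusted p 1.64e-10). Xist, a transcript of female cells, exceeded 100 CPM in 1 library of each series, all at ZT22, although the mice are labelled male, and stayed at or below 5.67 CPM in all others. Results that moved without those 4 libraries are named below. No label says that libraries come from separate mice, so p-values measure only the spread between these libraries. In bulk tissue, fewer cells of a type and less RNA per cell cannot be told apart. The nuclear, polysomal and Bmal1-/- series are each compared with the same wild-type total libraries, so the 3 comparisons are not independent.

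The receptor itself kept a nearly even level over the day in total RNA. Nr3c1 averaged between 73.9 CPM ± 11.7 (SD, n = 6; ZT22) and 87.8 ± 14 (ZT10) in wild type, and between 76.6 and 82.7 CPM in Bmal1-/-. Single wild-type libraries ran from 51.7 to 111 CPM with a median of 80.7, and Bmal1-/- libraries from 54.8 to 99.8 with a median of 78.0. The genotypes overlapped at every time. The fitted peak-to-trough ratio of wild type was 1.16 (edgeR, adjusted p 0.426), and the level differed by -0.12 on the log2 scale (SE 0.06, 95% interval -0.24 to -0.01, adjusted p 0.0798). With replicates 1 to 3 alone this difference was -0.21 (adjusted p 0.00400), and with replicates 4 to 6 alone it was -0.01 (adjusted p 0.951). Wild-type total libraries numbered 1 to 3 averaged 92.7 CPM ± 12.7 (SD, n = 18) and those numbered 4 to 6 averaged 68.0 ± 10.8, a gap that is not between genotypes.

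In Bmal1-/- total RNA 6 of the 9 genes differed in level from wild type, 3 higher and 3 lower. Tsc22d3, Sgk1 and Zbtb16 rose 1.71- to 1.82-fold, while Sgk2 fell by 0.93, Fkbp5 by 0.54 and Cebpb by 0.45 on the log2 scale. Across all 12082 genes tested 44.2% were called, 21.7% higher and 22.4% lower, so the share of members called (6 of 9) is to be read against a high background. The median log2 change was -0.19 over the members and -0.00 over all genes.

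**Figure D1:**
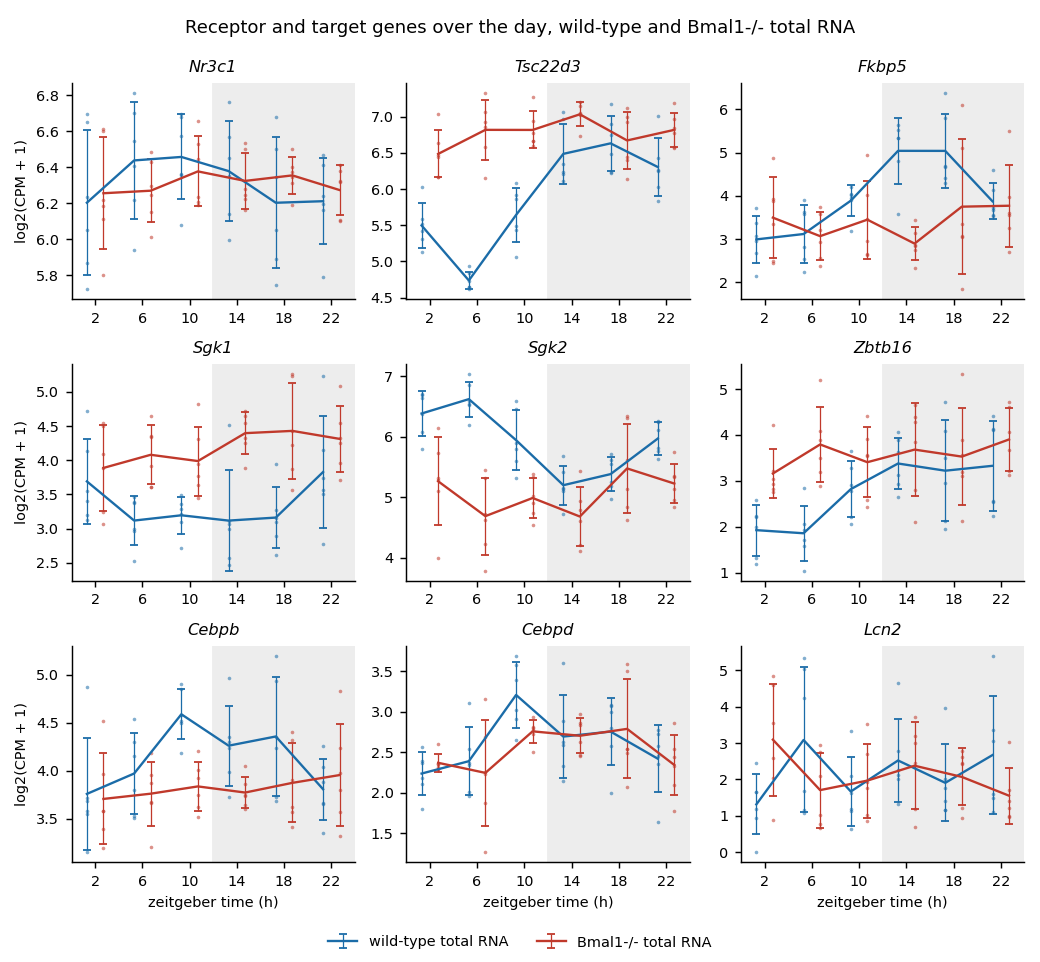
Level of each member by zeitgeber time (hours after lights on) in wild-type and Bmal1-/- total RNA, as log2(CPM + 1), 1 panel per gene with its own y axis. Small points are libraries, lines join the means of 6 libraries, bars are SD on that scale, and grey marks the dark phase. In wild type Tsc22d3, Fkbp5 and Zbtb16 climb into the dark phase and Sgk2 declines, and the Bmal1-/- means are flatter.

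Tsc22d3 encodes GILZ, a leucine zipper protein that carries part of the anti-inflammatory action of glucocorticoids. Its wild-type total libraries had 23.7, 24.9 and 29.5 CPM (lowest, median, highest) at ZT6 and 73.9, 97.9 and 144 CPM at ZT18. At the same times Bmal1-/- libraries had 70.2, 117 and 160 CPM and 69.7, 103 and 139 CPM. The wild type was thus low by day, and at ZT2, ZT6 and ZT10 every Bmal1-/- library lay above every wild-type one, while at ZT18 the genotypes covered nearly the same range. Averaged over the day, Tsc22d3 was 1.73-fold higher in Bmal1-/- (log2 0.79, SE 0.08, adjusted p 2.11e-13, higher at 6 of 6 times). The peak-to-trough ratio was 3.81 in wild type, with its peak at ZT17.7 (adjusted p 2.49e-09), and 1.21 in Bmal1-/- (adjusted p 0.9999). The curves differed (interaction, adjusted p 5.53e-08).

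Fkbp5 encodes FKBP51, an HSP90 partner that lowers hormone binding by the receptor and so closes a feedback loop. Wild-type total libraries had 3.42, 7.10 and 12.3 CPM at ZT2, 11.1, 39.5 and 49.1 CPM at ZT14 and 18.6, 24.6 and 82.6 CPM at ZT18. In Bmal1-/- the values were 4.50, 11.4 and 28.3 CPM at ZT2, 4.02, 6.25 and 9.90 CPM at ZT14 and 2.58, 8.31 and 67.3 CPM at ZT18. The groups were apart only at ZT14, where all Bmal1-/- libraries lay below all wild-type ones. At ZT18 most Bmal1-/- libraries were low, and 2 lay within the wild-type range, replicate 5 with 67.3 and replicate 6 with 33.4 CPM. Replicate 5 also had the highest Zbtb16 of its group, 39.2 CPM. Over the day Fkbp5 was lower in Bmal1-/- by a log2 change of -0.54 (SE 0.21, adjusted p 0.0302), a call lost with replicates 1 to 3 alone (adjusted p 0.1003) and without the filter on low counts (0.0584). The wild-type curve had a ratio of 6.00 and its peak at ZT16.1 (adjusted p 5.94e-07). It differed from that of Bmal1-/- (adjusted p 0.0297), except with replicates 4 to 6 alone (0.502) or with time as a factor (0.0567). Its spread among Bmal1-/- libraries of 1 time point was wider than that of 98.6% of genes.

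Zbtb16 encodes PLZF, a zinc finger repressor. The 6 wild-type libraries ranged from 1.05 to 6.18 CPM at ZT6 (median 2.53) and from 2.84 to 25.4 CPM at ZT18 (median 8.53). Bmal1-/- libraries ranged from 6.45 to 35.6 CPM at ZT6 (median 12.1) and from 3.33 to 39.2 CPM at ZT18 (median 9.43). As with Tsc22d3, the genotypes were apart by day (ZT2 and ZT6) and overlapped at night. The level was 1.82-fold higher in Bmal1-/- (log2 0.87, SE 0.21, adjusted p 0.000528, higher at 6 of 6 times), but not past the threshold with replicates 4 to 6 alone (adjusted p 0.156). The wild-type ratio over the day was 4.41 with a peak at ZT17.3 (adjusted p 0.00150, and 0.0699 and 0.103 within replicates 1 to 3 and 4 to 6). A difference between the curves was not detected (adjusted p 0.130). The gene count of Zbtb16 does not cover all sites inside the gene (chr9:48651797-48836225, RefSeq GRCm38.p6). All of them together held 655% of it, and those kept by the authors held 102%. Whether the sites left out are ends of Zbtb16 transcripts was not tested. The largest site, at chr9:48652039-48652139, is one that the authors' filtered list leaves out. It averaged 5.64 CPM ± 2.62 (SD, n = 6) at ZT6 and 25.6 ± 18.6 at ZT18 in wild-type total RNA. Over all 36 libraries it averaged 16.4 CPM, against 28.2 in Bmal1-/-.

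Sgk1 and Sgk2 encode related kinases that act on ion channels and transporters, and Sgk1 is a classic target of the receptor. They moved in opposite directions. Sgk1 libraries had 4.74, 8.16 and 10.02 CPM in wild type and 11.2, 16.7 and 24.1 CPM in Bmal1-/- at ZT6, where the groups were apart. At ZT22 they overlapped, with 5.84 to 36.5 CPM (median 11.6) and 12.1 to 33.0 CPM (median 18.5). Sgk1 was 1.71-fold higher in Bmal1-/- over the day (log2 0.77, SE 0.14, adjusted p 3.23e-06), at 6 of 6 times. Its log2 change was 1.13 with replicates 1 to 3 alone and 0.48 with replicates 4 to 6 alone, both past the threshold. A wild-type rhythm with a ratio of 1.91 and a peak at ZT23.1 was just called (adjusted p 0.0430), and the call was lost in 6 alternatives: without the libraries with high Xist (0.163), without the filter on low counts (0.0988), in a fit of all 4 series (0.105), with time as a factor (0.141) and within replicates 1 to 3 (0.0595) and 4 to 6 (0.214). The fitted wild-type peak of Sgk1 lay at ZT1.18, in the light phase, with replicates 1 to 3 alone and at ZT21.4 with replicates 4 to 6 alone. The curves of the genotypes were not found to differ (adjusted p 0.245).

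Of the members with a called rhythm in wild-type total RNA, Sgk2 alone had its fitted peak in the light phase when all replicates were fitted. Wild-type libraries had 72.5, 93.4 and 130 CPM at ZT6 and 25.4, 34.3 and 50.2 CPM at ZT14, and the 2 times did not overlap. In Bmal1-/- they had 12.8, 24.5 and 42.9 CPM and 16.3, 24.9 and 42.5 CPM, so that ZT6 and ZT14 covered nearly the same range and ZT6 lay wholly below wild type. Sgk2 was 1.90-fold lower over the day (log2 change -0.93, SE 0.11, adjusted p 1.31e-10). Its wild-type ratio was 2.62, with the peak at ZT3.93 (adjusted p 3.86e-07), and its curve differed from that of Bmal1-/- (adjusted p 0.00135). At ZT18 alone the mean was higher in Bmal1-/- (48.5 CPM ± 24.9, SD, n = 6) than in wild type (41.4 ± 8.17), within the spread.

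Cebpb and Cebpd encode C/EBP transcription factors that act beside the receptor on liver genes and respond to glucocorticoids and cytokines. Cebpb averaged 23.4 CPM ± 4.32 (SD, n = 6) at ZT10 and 13.3 ± 3.16 at ZT22 in wild type, and between 12.7 and 15.5 CPM in Bmal1-/-. The libraries of the 2 genotypes overlapped at every time. Its level was 1.36-fold lower in Bmal1-/- (log2 change -0.45, SE 0.11, adjusted p 0.000414). The wild-type ratio was 1.69 (adjusted p 0.0598). Cebpd ranged from 5.28 to 11.9 CPM (median 8.32) at ZT10 and from 2.49 to 4.91 CPM (median 3.84) at ZT2 in wild type, with no overlap. Its rhythm was called (ratio 1.89, peak at ZT13.0, adjusted p 0.0132), but not with replicates 4 to 6 alone (0.492) or in a fit of all 4 series (0.153). The Cebpd level did not pass the threshold between genotypes (log2 change -0.19, 95% interval -0.41 to 0.03, adjusted p 0.166). It was -0.52 with replicates 1 to 3 (adjusted p 0.00451) and 0.14 with replicates 4 to 6.

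Lcn2 encodes lipocalin 2, an iron-carrier-binding protein of the acute phase that is also stored in neutrophil granules. Wild-type total libraries ran from 0 to 41.3 CPM with a median of 2.18, and Bmal1-/- libraries from 0.575 to 27.9 CPM with a median of 3.20. High and low libraries stood side by side at the same time point: at ZT6 the wild type ran from 1.10 to 39.3 CPM. Neither the level (log2 change -0.42, SE 0.35, 95% interval -1.11 to 0.27, adjusted p 0.353) nor the rhythm (ratio 1.64, adjusted p 0.813) passed the threshold. The within-time spread of Lcn2 exceeded that of at least 99.0% of genes in each of the 4 series.

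The Lcn2 spread followed the replicate number. In wild-type total RNA the mean was 11.7 CPM ± 13.5 (SD, n = 18) in replicates 1 to 3 and 2.19 ± 1.99 in replicates 4 to 6, and in nuclear RNA 34.1 ± 43.3 and 4.83 ± 5.21. In polysomal RNA the order was reversed, 3.31 ± 3.12 and 22.7 ± 30.4. Bmal1-/- libraries showed 4.92 ± 3.68 and 5.21 ± 7.73 CPM, with no such gap. Saa1, an acute phase gene of hepatocytes, moved in the same manner, with 295 CPM ± 379 and 76.0 ± 70.4 in total RNA and 60.1 ± 43.5 and 274 ± 505 in polysomal RNA. So did the summed level of 6 neutrophil markers, with medians of 19.6 and 2.02 CPM in total, 7.68 and 1.12 CPM in nuclear and 2.31 and 22.8 CPM in polysomal RNA. S100a8 and S100a9 held most of that sum, and Ltf was at 0 in all total and nuclear libraries numbered 4 to 6.

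Other marker lists also moved with the replicate number. The adipocyte markers (3 genes) summed to medians of 17.4 and 0.138 CPM in total RNA (0 to 114 and 0 to 1.59), 49.8 and 0.458 CPM in nuclear RNA (0.310 to 155 and 0 to 2.28) and 0.0799 and 6.02 CPM in polysomal RNA (0 to 5.42 and 0 to 64.1). Nearly all of it was Cfd, which encodes the complement protease adipsin. The defining adipocyte genes were at or near 0: Adipoq reached at most 2.77 CPM and Plin1 at most 2.05 CPM in any wild-type library, and the median of each was 0 in both sets of every fraction. The erythrocyte markers (3 globin genes) had medians of 1832 and 1010 CPM in total and 3035 and 6525 CPM in polysomal RNA, but 475 and 488 CPM in nuclear RNA. The Kupffer cell markers (6 genes) had medians of 320 and 188 CPM in total and 225 and 367 CPM in polysomal RNA, while in nuclear RNA they were 225 and 262 CPM, lower in the set where Lcn2 was higher. The part of these cells and of inflammation in the Lcn2 values was not tested.

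Over the day as a whole, 6 of the 9 members were rhythmic in wild-type total RNA, where 18.9% of 11964 genes were. The median log2 peak-to-trough was 0.93 over the members and 0.32 over all genes. Tsc22d3, Fkbp5 and Zbtb16 reached their fitted peaks within the dark phase between ZT16.1 and ZT17.7, Cebpd at ZT13.0, Sgk1 at ZT23.1 and Sgk2 at ZT3.93. In Bmal1-/- total RNA 0 of the 9 were called by edgeR, where 0.00825% of 12126 genes (1 gene) were. At an unadjusted p under 0.05 there were 2 members, Sgk2 (p 0.0476) and Cebpd (p 0.0374), and 491 genes. The median log2 ratio there was 0.50 over the members and 0.19 over all genes. The curves of 3 members (Tsc22d3, Fkbp5 and Sgk2) differed between the genotypes, where 5.11% of 12082 genes did.

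**Figure D2:**
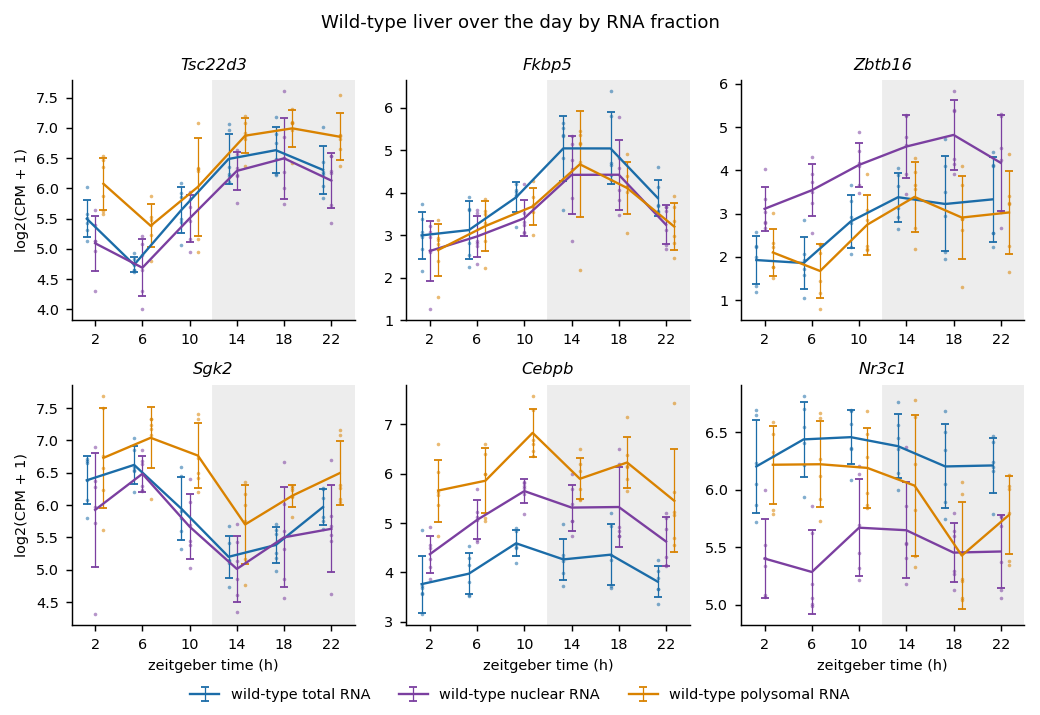
Level of 6 members by zeitgeber time (hours after lights on) in wild-type total, nuclear and polysomal RNA, as log2(CPM + 1), 1 panel per gene with its own y axis. Small points are libraries, lines join the means of 6 libraries, bars are SD, and grey marks the dark phase. Tsc22d3, Fkbp5 and Sgk2 are high and low at like times in the 3 fractions, and the Cebpb means are highest in polysomal RNA.

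Of the 6 members rhythmic in total RNA, 4 (Tsc22d3, Fkbp5, Zbtb16 and Sgk2) were also called in nuclear and in polysomal RNA. Sgk1 was called in neither (adjusted p 0.172 and 0.262), nor was Cebpd (0.566 and 0.412), and Cebpb was called in nuclear RNA alone. In nuclear RNA 5 of the 9 members were called, where 5.99% of 11172 genes were: Tsc22d3 (ratio 3.69, peak at ZT17.4, adjusted p 1.63e-08), Fkbp5 (4.63, ZT15.7, 2.24e-06), Cebpb (2.30, ZT12.8, 0.00114), Zbtb16 (3.32, ZT16.5, 0.00471) and Sgk2 (2.13, ZT3.91, 0.0108). The calls of Zbtb16 (0.344 and 0.0786) and Sgk2 (0.0667 and 0.423) were lost within replicates 1 to 3 and 4 to 6, and that of Cebpb within 1 to 3 (0.0777). Nuclear Tsc22d3 ranged from 15.0 to 36.1 CPM at ZT6 (median 26.4) and from 52.2 to 193 CPM at ZT18 (median 83.1), and these times did not overlap. Nuclear Cebpb ranged from 13.5 to 29.5 CPM at ZT2 (median 19.9) and from 35.3 to 56.2 CPM at ZT10 (median 52.1), also without overlap. At ZT18 replicate 5 had the highest nuclear Tsc22d3 (193 CPM), Fkbp5 (53.9), Zbtb16 (55.8), Cebpb (90.1) and Sgk1 (49.5). Total RNA of the same number and time also had the highest Tsc22d3, Fkbp5 and Zbtb16 of its group (144, 82.6 and 25.4 CPM).

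Polysomal RNA had 4 rhythmic members of 9, where 7.90% of 10691 genes were. These were Tsc22d3 (ratio 3.46, peak at ZT17.8, adjusted p 8.46e-07), Fkbp5 (4.87, ZT14.8, 1.01e-05), Zbtb16 (4.33, ZT16.8, 0.00403) and Sgk2 (1.93, ZT4.43, 0.0226). With replicates 1 to 3 alone the calls of Fkbp5 (0.128), Zbtb16 (0.272) and Sgk2 (0.570) were lost. The fitted peak of each lay within the same phase, light or dark, in all 3 fractions. Polysomal Nr3c1 averaged 75.7 CPM ± 19.8 (SD, n = 6) at ZT6 and 44.0 ± 15.5 at ZT18 (ratio 1.46, unadjusted p 0.0150, adjusted p 0.115), and passed the threshold in a fit of all 4 series (0.0115). A difference of the curve from that of total RNA was called for 0 of the 9 members in nuclear and for 0 in polysomal RNA, where 0% of genes were called in each. At an unadjusted p under 0.05 edgeR gave 0 members in either, and 244 genes in nuclear and 681 genes in polysomal RNA. These fits took all libraries as unpaired, so 0 calls do not show that the curves are alike. Alternative fits, among them 1 with the replicate number by time as a block, called at most 5 genes in nuclear RNA. In polysomal RNA they called at most 424, and both highest counts came without the filter on low counts.

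**Figure D3:**
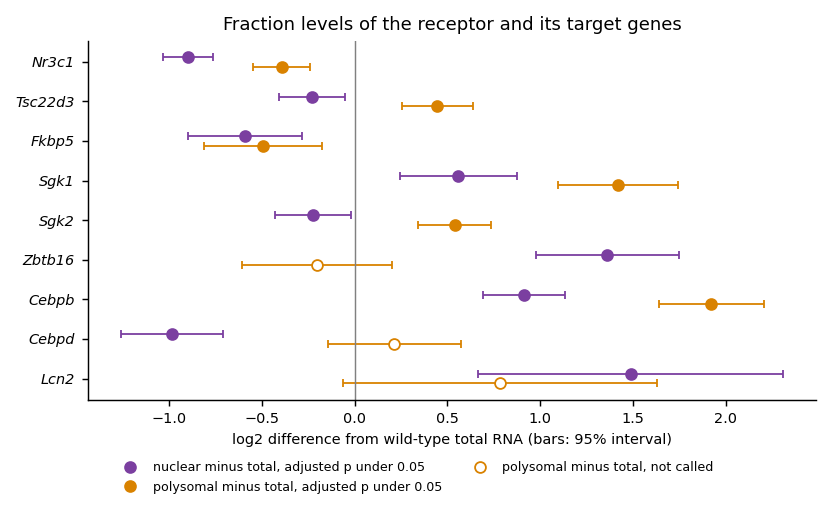
Log2 change of each member against wild-type total RNA, averaged over the day, for nuclear and polysomal RNA. Points are edgeR estimates, bars their 95% intervals, and filled points have an adjusted p under 0.05. Polysomal Cebpb (1.92) and Sgk1 (1.42) lie far to the right, and nuclear Cebpd (-0.99) and Nr3c1 (-0.90) lie far to the left.

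The fractions split the members by level. Nuclear RNA differed from total RNA for all 9 of them (4 higher, 5 lower), where 83.8% of 11864 genes were called, 41.6% higher and 42.1% lower. Polysomal RNA differed for 6 of the 9 (4 higher, 2 lower), where 76.1% of 11556 genes were called, 38.4% higher and 37.6% lower. The median log2 change was -0.22 over the members and -0.01 over all genes in nuclear RNA, and 0.45 and 0.01 in polysomal RNA. CPM are shares of a library, so a higher value in a fraction is relative to the other RNA of that fraction.

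Cebpb had the widest gap. Its libraries had 7.90, 17.0 and 35.8 CPM (lowest, median, highest of 36) in total RNA, 13.5, 31.9 and 90.1 CPM in nuclear RNA and 22.4, 63.8 and 190 CPM in polysomal RNA. At 5 of 6 times, all but ZT2, every polysomal library lay above every total one, at ZT10 with 81.4 to 190 against 17.2 to 28.9 CPM. The polysomal level was 3.79-fold higher (log2 1.92, SE 0.14, adjusted p 2.12e-19) and the nuclear level was also higher (0.91, SE 0.11, adjusted p 2.80e-11). Its relative Cebpd, in contrast, was lower in nuclear RNA (log2 change -0.99, SE 0.14, adjusted p 2.07e-09, 2.88 CPM ± 1.69 against 5.51 ± 2.41, SD, n = 36). For Cebpd a difference in polysomal RNA was not detected (0.21, SE 0.18, adjusted p 0.283).

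Both kinases were higher on polysomes. Sgk1 averaged 28.2 CPM ± 17.0 (SD, n = 36) there against 10.3 ± 6.37 in total RNA, a 2.67-fold difference (log2 1.42, SE 0.17, adjusted p 1.03e-11). Polysomal and total libraries were apart at ZT6 (13.9 to 26.0 against 4.74 to 10.02 CPM), ZT10 and ZT18. Sgk1 was 1.94 higher on the log2 scale with replicates 1 to 3 alone and 0.85 higher with replicates 4 to 6 alone, both past the threshold. Nuclear Sgk1 was higher as well (0.56, SE 0.16, adjusted p 0.00119). Sgk2 was higher in polysomal RNA (97.7 CPM ± 44.8 against 64.6 ± 27.0; log2 0.54, SE 0.10, adjusted p 2.41e-06). In nuclear RNA Sgk2 was just called lower (log2 change -0.22, SE 0.11, adjusted p 0.0445), a call lost in 6 of the alternative fits.

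Nr3c1 was lower in both fractions than in total RNA. Nuclear libraries had 30.7, 42.1 and 81.9 CPM and polysomal libraries 31.9, 62.5 and 109 CPM, against 51.7, 80.7 and 111 CPM in total RNA. Nuclear libraries lay wholly below total ones at ZT6 and ZT22, and polysomal libraries overlapped total ones at every time. The log2 change was -0.90 (SE 0.07, adjusted p 6.35e-20) in nuclear and -0.39 (SE 0.08, adjusted p 8.33e-06) in polysomal RNA. By its gene count Fkbp5 was also lower in both (-0.59, SE 0.16, adjusted p 0.000508, and -0.49, SE 0.16, adjusted p 0.00516), though with replicates 1 to 3 alone the polysomal change was -0.16 (adjusted p 0.514). That count leaves out the site at chr17:28421757-28421768 given below. In nuclear RNA this site reached 62.3 CPM at ZT18, above the highest Fkbp5 gene value of 53.9. Its time-point means ran from 3.55 to 19.4 CPM in nuclear and from 0.322 to 2.11 CPM in total RNA. The nuclear Fkbp5 change thus covers the counted ends only, and a change with this site was not tested. Tsc22d3 was slightly lower in nuclear RNA (-0.23, SE 0.09, adjusted p 0.0172), not past the threshold within replicates 1 to 3 (0.115) or 4 to 6 (0.103), and higher in polysomal RNA (0.45, SE 0.10, adjusted p 3.99e-05).

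Zbtb16 was higher in nuclear RNA, with 19.1 CPM ± 12.8 (SD, n = 36) against 7.41 ± 5.97 in total RNA (log2 1.36, SE 0.20, adjusted p 5.46e-09) and 6.62 ± 5.06 in polysomal RNA (log2 change -0.20, SE 0.21, adjusted p 0.373). The large site left out of its gene count had 36.9 CPM in nuclear, 16.4 in total and 13.0 in polysomal RNA. Lcn2 was higher in nuclear RNA (log2 1.49, SE 0.42, adjusted p 0.00103). Its polysomal change of 0.78 (SE 0.43, adjusted p 0.0934) was -1.38 (adjusted p 0.0249) with replicates 1 to 3 alone and 2.81 (adjusted p 6.79e-05) with replicates 4 to 6 alone. The neutrophil marker sums given above moved with the same sets of numbers, and their part in this difference was not tested.

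The counts of the receptor gene were divided differently among its polyadenylation sites in the 3 fractions. Nr3c1 lies at chr18:39410545-39519421 on the minus strand (RefSeq GRCm38.p6), and 4 of its sites held at least 5% of its site counts. The main one, at 39424383 to 39424502, lies 13.9 kb before the annotated gene end. Shares are of the summed counts of the 7 Nr3c1 sites kept by the authors. These held 78.8% of the gene count, and all 27 sites held 100.5%. The share of the main site ran from 46.4% to 67.5% (median 61.4%) in total RNA, from 63.0% to 84.0% (median 76.3%) in nuclear RNA and from 18.9% to 59.7% (median 42.3%) in polysomal RNA. Nuclear shares were mostly above and polysomal shares mostly below those of total RNA, with some overlap. The log2 change of the share was 0.36 (SE 0.03, adjusted p 3.95e-16) in nuclear and -0.52 (SE 0.06, adjusted p 1.19e-10) in polysomal RNA.

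**Figure D4:**
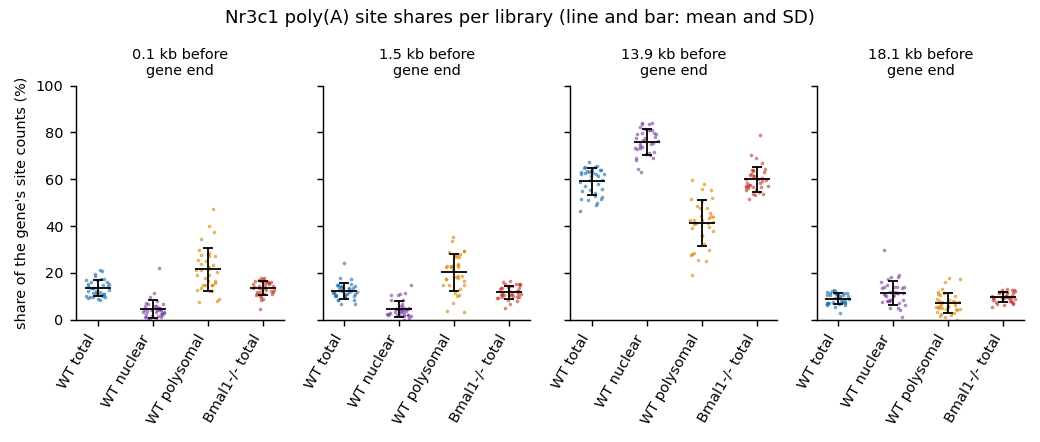
Share (percent) of the summed counts of the 7 Nr3c1 sites kept by the authors, at its 4 main polyadenylation sites. There is 1 panel per site, headed by its distance from the annotated gene end (kb), with wild-type total, nuclear, polysomal and Bmal1-/- total RNA. Points are libraries and bars mean and SD of 36 libraries. The site 13.9 kb before the end holds a mean of 76.0% in nuclear and 41.3% in polysomal RNA, and the sites nearest the end do the reverse.

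The 2 sites nearest the gene end did the opposite. The site at 39410632 to 39410689, 0.115 kb before the end, held means of 13.5% in total, 4.46% in nuclear and 21.4% in polysomal RNA. The log2 change of its share was -1.58 (SE 0.16, adjusted p 2.61e-13) in nuclear and 0.64 (SE 0.12, adjusted p 3.20e-06) in polysomal RNA. The site at 39411982 to 39412099 held 12.3%, 4.69% and 20.1% in the same order (log2 changes -1.43, adjusted p 1.96e-12, and 0.70, adjusted p 6.52e-08). The last of the 4, at 39428615 to 39428662, held 8.99%, 11.4% and 7.11%. It was called in both fractions (0.27, adjusted p 0.0374, and -0.39, adjusted p 0.0122), but not in nuclear RNA with replicates 1 to 3 alone (0.710), and its polysomal change was 0.01 with replicates 4 to 6 alone. In Bmal1-/- total RNA the main site held 59.9% ± 5.42 (SD, n = 36) against 59.1% ± 5.62 in wild type. Whether a site lies in an exon or an intron could not be read from the tables used here.

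Between genotypes 0 of 10 member sites differed in share by edgeR, where 10% of 11876 sites did, and 0 of the 10 had an unadjusted p under 0.05. In nuclear RNA 7 of 9 member sites did (79.8% of 10201 sites), and in polysomal RNA 7 of 11 (71.7% of 10916 sites). The Tsc22d3 site at chrX:140540259-140540333 held 3.08% in total and 8.46% in polysomal RNA (log2 1.45, SE 0.15, adjusted p 6.28e-13), and the main site at chrX:140539525-140539708 held 96.9% and 91.5%. For Zbtb16, the site at chr9:48795653-48795699, far inside the gene, held 23.0% in total and 52.0% in nuclear RNA (log2 1.59, SE 0.22, adjusted p 2.88e-09). These are shares of the counts at Zbtb16 sites kept by the authors, which leave out its largest site. The kept sites held 102% of the gene count and all sites 655%, so these are not shares of all site counts inside Zbtb16. The Cebpb site at chr2:167690273-167690304 held 8.02% in total and 15.0% in nuclear RNA (1.07, SE 0.38, adjusted p 0.00979, and 0.155 with replicates 4 to 6 alone). Fkbp5 had a site 23.0 kb before its end, chr17:28421757-28421768, that the authors' filtered list leaves out and that was not tested: it had a mean of 12.1 CPM in nuclear RNA, 0.999 in total, 0.235 in polysomal and 0.726 in Bmal1-/- RNA.

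The rest of the pathway was read from lists of known genes. The list of ligand supply and receptor chaperones held 12 genes. They are HSP90, HSP70, their partners, the genes that carry or renew corticosterone, and Nr3c2, the mineralocorticoid receptor gene. Of the 12, 8 were rhythmic in wild-type total RNA, against 18.9% of all genes. In Bmal1-/- 0 of 11 were (edgeR, with 1 at an unadjusted p under 0.05), against 0.00825%. The curves of 6 of 12 differed between genotypes, against 5.11%. The median log2 peak-to-trough of the list in wild type was 0.73, against 0.32 over all genes. Hsp90aa1, an HSP90 chaperone, had a ratio of 3.60 and its peak at ZT18.6 (adjusted p 2.43e-07; curves different, 2.65e-05). Hspa8, an HSP70 chaperone, had 2.29 and ZT17.0 (adjusted p 2.52e-06). Fkbp4, the FKBP52 counterpart of Fkbp5, differed in its curve between genotypes (adjusted p 0.000382). By level 3 of the 12 fell in Bmal1-/- and 0 rose, below the 44.2% of all genes called. Serpina6, the corticosteroid-binding globulin of plasma, had a mean of 134 CPM ± 60.2 (SD, n = 36) without the knockout and 78.6 ± 37.2 with it (a log2 change of -0.88, SE 0.15, adjusted p 2.19e-06). In nuclear RNA 3 were higher and 7 lower of 11, among them Hsd11b1, which renews active hormone (-2.10, SE 0.09, adjusted p 6.61e-33), and in polysomal RNA 3 were higher and 5 lower of 12, against 83.8% and 76.1% of all genes called in these fractions.

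Of 9 coregulators, 3 rose in Bmal1-/- and 0 fell, where 44.2% of all genes were called: Nrip1 (0.50, adjusted p 4.81e-08), Ppargc1a (0.52, 0.00624) and Crebbp (0.16, 0.00654). Only Ncoa2 was rhythmic in wild-type total RNA (ratio 1.31, adjusted p 0.0313; 18.9% of all genes were), and the curves of 0 differed between genotypes (edgeR; 2 at an unadjusted p under 0.05), against 5.11% of all genes. In nuclear RNA 6 were higher and 2 lower (all genes, 41.6% and 42.1%), and in polysomal RNA 1 was higher and 6 lower (38.4% and 37.6%), Crebbp by a log2 change of -1.27 (SE 0.09, adjusted p 1.29e-21).

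Of 21 other genes known to be induced by glucocorticoids, 19 were tested, and 7 rose and 8 fell in Bmal1-/-, where 21.7% of all genes rose and 22.4% fell, with a median log2 change of -0.23. Cdkn1a, a cell cycle inhibitor, averaged 29.3 CPM ± 33.4 (SD, n = 36) in wild type and 201 ± 76.3 in Bmal1-/- (log2 3.29, SE 0.22, adjusted p 5.06e-20), and Mfsd2a, a lipid transporter, changed by -1.93 (SE 0.35, adjusted p 7.58e-06). In wild-type total RNA 9 of the 19 were rhythmic, 5 in nuclear, 7 in polysomal and 0 in Bmal1-/- RNA (edgeR; 0 there at an unadjusted p under 0.05). The shares of all genes were 18.9%, 5.99%, 7.90% and 0.00825% in the same order. The median log2 peak-to-trough of the 19 in wild-type total RNA was 1.12, against 0.32 over all genes. Per1, a clock gene that is also a receptor target, had a ratio of 11.04 with its peak at ZT13.8 (adjusted p 2.12e-06), and Ddit4, an inhibitor of mTOR signalling, 4.07 at ZT19.8 (2.01e-06). The curves of Cdkn1a (adjusted p 8.86e-06), Per1 (0.00277) and Nfkbia (0.0329) differed between genotypes, 3 of 19 where 5.11% of all genes did.

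Of 12 acute phase and inflammatory genes 6 fell and 1, Fgb, rose in Bmal1-/- (log2 0.53, adjusted p 2.28e-10), where 22.4% of all genes fell and 21.7% rose. Saa1 changed by -2.69 (SE 0.36, adjusted p 6.34e-09), Saa2 by -2.60 (SE 0.39, adjusted p 1.18e-07) and Saa3 by -1.83 (SE 0.20, adjusted p 2.77e-11). Saa1 and Saa2 are near-identical, so their counts are uncertain. These changes are over all replicates. Wild-type total Saa1 was itself higher in replicates 1 to 3 than in replicates 4 to 6, as given above. Its median was 74.6 CPM over all wild-type total libraries and 13.7 CPM over those of Bmal1-/-. Changes of the Saa genes within each set of replicates are not given here. In wild-type total RNA 2 of the 12 were rhythmic, Fgb and Il1rn, near the 18.9% of all genes, and 0 curves differed between genotypes (edgeR; 1 at an unadjusted p under 0.05), where 5.11% of all genes did. Lcn2, which is counted with the members, did not follow the Saa genes past the threshold, as given above.

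Likeness of day profiles was measured as Pearson's r over the 24 time-point means of the 4 series, as log2(CPM + 1) less the mean of each series, among the 7973 genes that averaged 50 or more counts in wild-type total RNA. It is a description, since the means share series, libraries and depth. The 3 genes nearest to Tsc22d3 included Ppp1r3b (r 0.915) and Trp53inp2 (0.910). Fkbp5 was closest to Foxa3 (0.907) and Slc35g1 (0.895), and Sgk2 to Dixdc1 (0.899) and Zfp395 (0.890). Zbtb16 had Tsc22d3 itself among its 3 nearest genes (0.885). Between members, Tsc22d3 and Sgk2 ran against each other (-0.847), Fkbp5 and Zbtb16 together (0.785) and Cebpb and Cebpd together (0.701). Nr3c1 was not close to any other member, with r between -0.345 (Sgk1) and 0.247 (Cebpb).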

How the data were processed

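The deposited tables hold raw counts per gene and per polyadenylation site, as whole numbers made by the authors for 144 libraries, 1 column each. STAR 2.4.2a, edgeR, HOMER and builds mm10 and GRCm38.p5 are named in the submitters' processing notes, with no settings, and the counting is not given in the sources used here. The deposited normalized tables were not used. The deposited site list gives coordinates (build not stated in it), of which 29199 of 86780 sites were kept by the authors. Sites were matched by position to RefSeq genes (GRCm38.p6, same strand, up to 1000 bp past the end). Where the member genes overlap another RefSeq gene (Fkbp5, Sgk1, Zbtb16 and Cebpd do), counts are uncertain.

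Tests used edgeR 4.0.16 in R 4.3.3 (robust quasi-likelihood, TMM factors, Benjamini-Hochberg over all genes tested, threshold 0.05, mean of at least 10 counts). Levels were contrasted over the mean of 6 time-point means, rhythm was a 24 h cosine and sine (2 degrees of freedom), and rhythm differences were interactions. Fitted peak times come from that curve. Site usage was tested on site counts with the log of the gene's site counts plus 0.5 as offset, for sites of at least 5% in genes averaging 50 or more counts. A gene's site counts, here and in the shares, are those of its sites kept by the authors. The scripts were tested on simulated data. Each of 360 pairs of libraries in a group differed (0 identical). Alternatives were DESeq2 1.42.0 size factors, no filter, replicates 1 to 3 or 4 to 6 only, fits without the libraries with high Xist or polysomal replicate 1, a joint fit, time as a factor, a site minimum of 10% and the replicate number as a block. For the fractions, the replicate number by time was also used as a block.

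The named genes are the 9 members, the 4 pathway genes of smallest p past the threshold per list and comparison, and the 3 genes of highest likeness to a member. Members and lists were chosen with earlier results of these data known. Depth limits the low genes most: Cebpd had a mean of 7.17 counts in a nuclear library at ZT6.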

Additional observations from a re-analysis of the deposited data

Results flagged for a closer look

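Among the 216 groups of 6 libraries (9 genes, 24 groups), 15 held 1 library that stood apart by Dixon's ratio on log2(CPM + 1), where chance gives about 1 in 20. Fkbp5 was low at 1.39 CPM in nuclear ZT2 replicate 3 (others 5.04 to 8.31), at 3.49 in polysomal ZT14 replicate 3 (others 25.3 to 42.6) and at 8.16 in wild-type total ZT10 replicate 4 (others 14.1 to 17.5). Sgk1 was high at 83.0 CPM in the same polysomal ZT14 replicate 3 (others 15.9 to 25.1) and at 21.8 in total ZT14 replicate 4 (others 4.50 to 7.65). Total ZT14 replicate 4 had the lowest Fkbp5 of its group, 11.1 CPM. Sgk2 was low in polysomal RNA at 67.1 CPM in ZT6 replicate 1 (others 135 to 159) and at 55.6 in ZT18 replicate 3 (others 68.6 to 77.6).

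Zbtb16 was high at 17.6 CPM in Bmal1-/- ZT2 replicate 1 (others 5.74 to 8.22). Cebpb was high at 171 CPM in polysomal ZT22 replicate 6 (others 22.4 to 48.4) and at 28.2 in total ZT2 replicate 4 (others 7.90 to 12.2). Cebpd was high at 5.04 CPM in Bmal1-/- ZT2 replicate 6 (others 3.90 to 4.12) and low at 2.11 in total ZT22 replicate 4 (others 4.11 to 5.84). Lcn2 was high at 7.10 CPM in Bmal1-/- ZT22 replicate 2 (others 0.970 to 2.26), at 67.6 in polysomal ZT2 replicate 6 (others 1.33 to 6.07) and at 14.5 in total ZT18 replicate 1 (others 1.22 to 3.02). Nr3c1 and Tsc22d3 had 0 such libraries in their 24 groups each.

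The daily curve of Bmal1-/- was unlike that of wild type for Tsc22d3 (adjusted p 5.53e-08), Sgk2 (0.00135) and Fkbp5 (0.0297), by the interaction in edgeR.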

How the results depend on the processing

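Of 903 member values recomputed, 841 kept their direction and side of the threshold, 34 lost and 10 gained a call, and 18 changed sign, 1 of them called at first. The count of rhythmic members (6 in wild-type total, 5 in nuclear, 4 in polysomal RNA) was 3 in total RNA with replicates 4 to 6 only, 2 and 3 in nuclear RNA with replicates 1 to 3 and 4 to 6 only, and 1 in polysomal RNA with replicates 1 to 3 only. The 7 polysomal sites became 4 with a site minimum of 10% and 4 with replicates 4 to 6 only.

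Signs changed as follows (log2). For Bmal1-/- levels with replicates 4 to 6 only, Lcn2 was 0.53 and Cebpd 0.14. For polysomal levels with replicates 1 to 3 only, Lcn2 was -1.38, Zbtb16 0.18 and Cebpd -0.0790, and Cebpd was -0.0147 without polysomal replicate 1. Site shares in Bmal1-/- were -0.00779 and 0.0336 (Sgk1), -0.11 (Nr3c1) and -0.0392 and -0.0482 (Zbtb16) with replicates 4 to 6 only, and 0.0546, -0.0190 and -0.0880 (Nr3c1), -0.0512 (Cebpb) and -0.14 (Zbtb16) with replicates 1 to 3 only. Polysomal site shares were -0.0403 (Sgk1) and 0.00767 (Nr3c1) with replicates 4 to 6 only. The cause was not tested.

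Over all features, rhythm in polysomal RNA ran from 115 (replicates 1 to 3 only) to 2679 genes (joint fit), in wild-type total RNA from 622 to 3039, and in nuclear RNA from 174 to 996. Rhythm differences for Bmal1-/- ran from 189 to 842, those for polysomal RNA from 0 to 424 (no filter), usage for Bmal1-/- from 774 to 1973. The median of all genes in polysomal RNA moved from 0.01 to -0.07 with DESeq2 factors and -0.29 with no filter.

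Libraries of the same number and time correlated with total RNA by a mean of 0.349 in nuclear (34 of 36 pairs over 0.1, 32 best with their own number), -0.133 in polysomal (0 best) and 0.077 in Bmal1-/- RNA, so the numbers do not pair all samples. With the replicate number as a block, Nr3c1 in Bmal1-/- passed the threshold (-0.11, adjusted p 0.0149), as did Cebpb rhythm in total RNA (0.0165) and Nr3c1 rhythm in polysomal RNA (0.0430).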
